A study of Mus musculus with 12 samples.

Results

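The genes described are 6 signal transducers and activators of transcription (STAT), Stat2, Stat3, Stat4, Stat5a, Stat5b and Stat6, and 3 Janus kinases (JAK), Jak1, Jak2 and Tyk2. They were chosen by symbol, through the Ensembl identifiers of the count table, and form 9 of its 55401 genes. All 9 passed the filter on low counts, which kept 20818 genes. Other members of both families were not analysed here. RNA was sequenced from 12 TC2Ras tumors taken at day 21, where TC2Ras is a Ras-driven mouse prostate cancer line that was grown under the skin of mice. Control tumors grew from 125000 TC2Ras cells alone in mice on water with 0 ppb inorganic arsenic (iAs). ASC tumors grew from the same number of cells including 1% ASC-GFP cells, adipose-derived stromal cells that carry a green fluorescent protein, also at 0 ppb iAs. For As300 tumors, mice that bore TC2Ras cells alone drank water with 300 ppb iAs. The ASC_As300 group had both the ASC-GFP cells and that water. Each group held 3 tumors. Before implantation all mice had received chow low in arsenic and Milli-Q water, and the left and right flank tumors of a mouse were combined into 1 sample. Mouse age is not given in the sources used here.

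Cytokines and interferons signal through receptors that lack a kinase of their own and are bound by JAK proteins. Ligand binding activates the JAKs, which phosphorylate the receptor and then the STAT proteins, and paired STATs enter the nucleus and switch on target genes. STAT2 acts with IRF9 in the type I interferon response, STAT3 carries signals of the IL-6 family, STAT4 those of IL-12, STAT5A and STAT5B those of IL-2, growth hormone and prolactin, and STAT6 those of IL-4 and IL-13. The SOCS proteins, whose genes are themselves STAT targets, shut the pathway off. Much of its control lies in phosphorylation, which RNA counts do not show.

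Total counts per tumor ran from 39157647 to 55168642. Values below are CPM, the counts of a gene per 1000000 counts of the scaled library. A gene is said to have passed the test, or to have risen or fallen, when its adjusted p was under 0.05 and its fold change 1.5 or more. The labels name stromal cells as the cell type, while the series' design describes tumors. Summed over 10 fibroblast and ASC markers the libraries held 5457 to 10467 CPM, and over 8 epithelial markers 26.9 to 362 CPM, the highest in Control replicate 1. None of the markers in 14 cell type lists was at 0 in all tumors. Control replicate 1 stood apart, with 507 CPM over 10 B cell and plasma cell markers against 12.1 to 73.3 CPM in the other 11 tumors. Skeletal muscle markers summed to 1551 CPM in Control replicate 2 and 1566 CPM in As300 replicate 1, against at most 316 CPM elsewhere. In bulk tumors, fewer cells of a type and less RNA per cell cannot be told apart.

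Stat2 and Stat4 were the only members that passed the test in any comparison, and the 250 bases before their start sites are shown to set their promoters beside those values. RefSeq lists 1 start for Stat2 and 2 for Stat4, on build GRCm38.p6. Capitals mark matches to GAAANNGAA, a short form of the interferon-stimulated response element, on either strand. All lines read in the direction of transcription.
Stat2, chr10:128270248-128270497, plus strand: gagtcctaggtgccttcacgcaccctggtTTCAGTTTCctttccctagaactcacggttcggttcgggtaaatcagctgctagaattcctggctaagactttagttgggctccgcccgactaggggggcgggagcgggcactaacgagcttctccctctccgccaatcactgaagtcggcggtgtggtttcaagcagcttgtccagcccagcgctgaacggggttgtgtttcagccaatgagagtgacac
Stat4, first start, chr1:51986898-51987147, plus strand: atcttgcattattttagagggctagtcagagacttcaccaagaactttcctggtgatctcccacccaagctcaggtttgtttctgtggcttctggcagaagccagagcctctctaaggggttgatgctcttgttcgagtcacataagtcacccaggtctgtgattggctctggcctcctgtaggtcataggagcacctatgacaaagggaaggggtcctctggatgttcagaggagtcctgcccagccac
Stat4, second start, chr1:52007990-52008239, plus strand: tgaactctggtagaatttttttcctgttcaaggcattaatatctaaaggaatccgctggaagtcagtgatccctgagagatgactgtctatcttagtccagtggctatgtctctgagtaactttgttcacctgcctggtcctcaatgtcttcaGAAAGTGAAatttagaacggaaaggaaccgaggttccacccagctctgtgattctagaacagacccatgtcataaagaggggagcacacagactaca

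In windows of 300 bases, from 250 before to 50 after each start, RefSeq holds 12 promoters of the 9 genes. GAAANNGAA was found in 2 of these 12, in Stat2 on the minus strand, 221 bases before the start, and in the second promoter of Stat4 on the plus strand, 97 bases before it. Among all 32851 promoter windows 8.56% hold the motif. TTCNNNGAA, the core of the gamma-activated site that STAT dimers bind, was found in 0 of the 12 windows and in 8.30% of all windows. The motifs share no match here. On chromosome 11, Stat3, Stat5a and Stat5b follow each other with no other coding gene between Stat3 and Stat5a or between Stat5a and Stat5b. Stat2 and Stat6 both lie on chromosome 10, with 26 coding genes between them.

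The levels of the 9 genes were set in order as CPM per kb of exon, averaged over the 12 tumors. Stat6 was highest at 24.4 CPM per kb, above every other member in each tumor. Jak1 and Stat3 followed at 15.5 CPM per kb each, with Jak1 ahead in 7 of 12 tumors, so that these neighbors were not separated. Jak2 came next at 10.4 CPM per kb, ahead of Stat5b at 8.47 CPM per kb in 11 of 12 tumors. Stat5b exceeded Stat2, at 7.06 CPM per kb, in 8 of 12 tumors, and Stat2 exceeded Tyk2, at 6.67 CPM per kb, in 6 of 12. Those 6 were the tumors with ASC, so that the order of Stat2 and Tyk2 differed between the groups. Stat5a, at 2.29 CPM per kb, and Stat4, at 0.909 CPM per kb, were below all the others in every tumor. The length used is that of all annotated exons of a gene, so that genes with rarely used exons are set too low on this scale.

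Stat2 and Stat4 also varied most between tumors. The coefficient of variation of CPM over the 12 tumors was 42.9% for Stat2 and 40.5% for Stat4, against 5.99% for Stat6 and 7.84% for Stat3. For Stat6 this is lower than in all but 2.38% of the genes tested. The remaining 5 genes lay between 10.6% for Tyk2 and 16.2% for Stat5a.

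**Figure D1:**
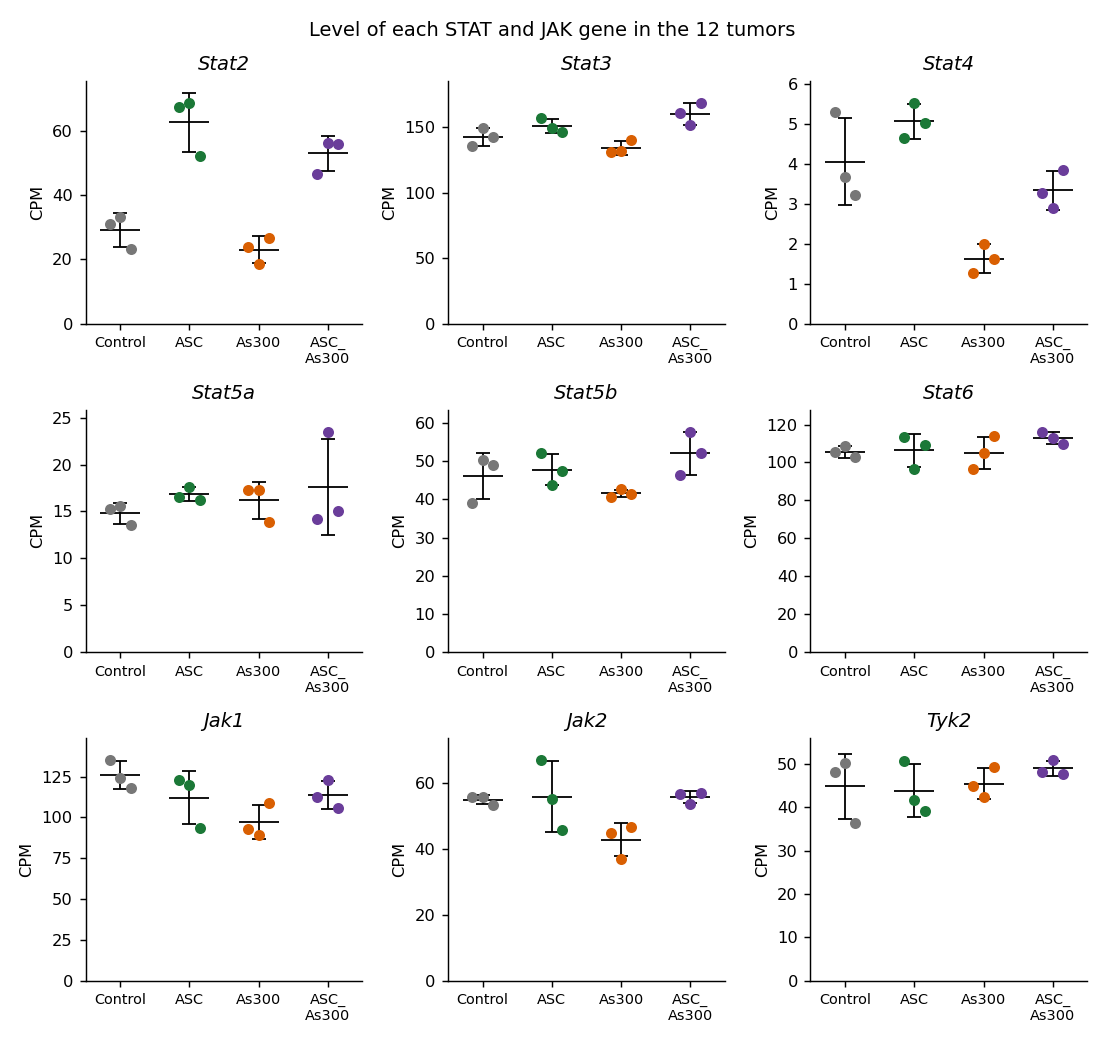
CPM of each of the 9 genes in the 12 tumors, 1 point per tumor, with the group mean (long bar) and SD (capped line) of 3 tumors, and each vertical axis starting at 0. Stat2 is higher in all 6 tumors with ASC (46.6 to 68.5 CPM) than in all 6 without (18.4 to 33.2 CPM), and Stat4 is lowest in the 3 As300 tumors (1.28 to 1.98 CPM).

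The addition of ASC was first examined without iAs. Stat2 measured 30.8, 33.2 and 23.1 CPM in the Control tumors and 67.3, 68.5 and 52.0 CPM in the ASC tumors. The lowest ASC tumor exceeded the highest Control tumor. Stat2 rose 2.16-fold (95% interval 1.67 to 2.77), a log2 fold change of 1.11 ± 0.17 (SE) with an adjusted p of 0.00644. It was the only one of the 9 members that passed the test, where 0.721% of all genes tested passed.

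The other 5 STAT genes did not pass between ASC and Control. Stat5a measured 15.3, 15.6 and 13.5 CPM in Control and 16.5, 17.7 and 16.3 CPM in ASC. Its groups did not overlap, and the log2 fold change of 0.18 ± 0.18 (SE) had a 95% interval that included 0 (adjusted p = 0.677). With Stat2 it made 2 of 9 members whose tumors did not overlap, against 19% of all genes. Stat3, Stat4, Stat5b and Stat6 overlapped between the groups. Their log2 fold changes were 0.08, 0.32, 0.05 and 0.01, in this order, and the 95% interval for Stat3 ran from -0.07 to 0.23.

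The JAK genes overlapped between ASC and Control. Jak1, which serves most cytokine receptors, measured 135, 124 and 118 CPM in Control and 123, 120 and 93.4 CPM in ASC. Jak2, the kinase of the growth hormone, erythropoietin and interferon gamma receptors, measured 55.7, 55.6 and 53.3 CPM in Control and 66.9, 54.9 and 45.5 CPM in ASC, with the highest and the lowest value of both groups in ASC. Tyk2, which binds the interferon alpha and IL-12 receptors, measured 48.2, 50.2 and 36.3 CPM in Control and 50.7, 41.7 and 39.1 CPM in ASC. The log2 fold changes were -0.17 ± 0.11 (SE) for Jak1, 0.02 ± 0.12 for Jak2 and -0.03 ± 0.13 for Tyk2, with adjusted p from 0.525 to 0.954.

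The same addition of ASC was then examined under iAs, in 6 other tumors. Stat2 measured 23.7, 18.4 and 26.7 CPM in As300 and 46.6, 56.2 and 55.8 CPM in ASC_As300. Again no tumor overlapped. Stat2 rose 2.31-fold (95% interval 1.79 to 2.97), a log2 fold change of 1.21 ± 0.17 (SE) with an adjusted p of 0.00288. It was the only member that passed, where 0.855% of all genes passed.

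All 9 members had a positive log2 fold change between ASC_As300 and As300, with a median of 0.25 against 0.00019 over all genes tested. Without ASC_As300 replicate 2 the value for Stat5a was -0.16. In 5 of the 9, Stat2, Stat3, Stat4, Stat5b and Jak2, every ASC_As300 tumor was above every As300 tumor, against 19.7% of all genes without overlap in either direction. Stat3 measured 131, 132 and 141 CPM in As300 and 161, 152 and 169 CPM in ASC_As300, a log2 fold change of 0.25 ± 0.07 (SE) with an adjusted p of 0.171. Stat4 measured 1.28, 1.98 and 1.62 CPM in As300 and 3.28, 2.88 and 3.86 CPM in ASC_As300, a log2 fold change of 1.03 ± 0.26 (SE) with an adjusted p of 0.109. DESeq2 gave an adjusted p of 0.0132 for this difference, so that the call of Stat4 depends on the tool.

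Stat5b measured 40.8, 42.7 and 41.4 CPM in As300 and 46.4, 57.8 and 52.1 CPM in ASC_As300, a log2 fold change of 0.32 with an adjusted p of 0.325. Jak2 measured 44.6, 37.0 and 46.4 CPM in As300 and 56.5, 53.5 and 56.8 CPM in ASC_As300, a log2 fold change of 0.38 with an adjusted p of 0.285. Neither passed after adjustment over all genes. Stat5a, Stat6, Jak1 and Tyk2 overlapped, with log2 fold changes of 0.12, 0.10, 0.23 and 0.11.

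**Figure D2:**
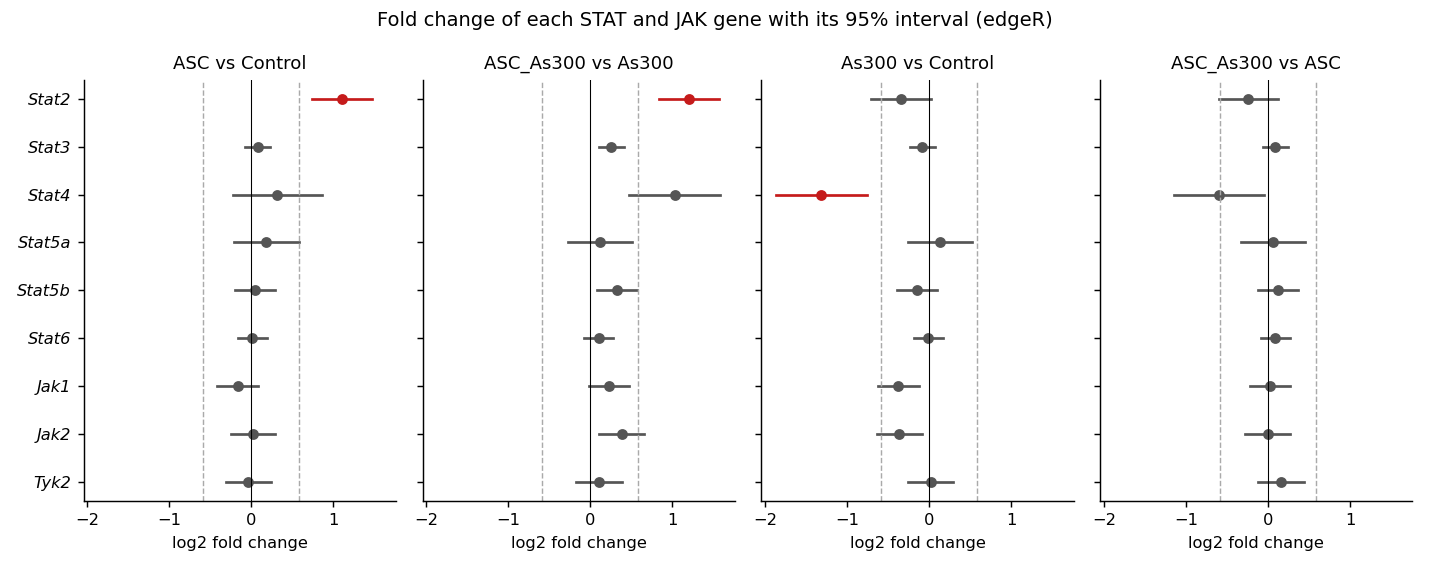
Log2 fold change (horizontal axis) of each of the 9 genes in 4 comparisons, with its 95% interval from edgeR, red where the gene passed the test and with dashed lines at 1.5-fold. Stat2 passes in both comparisons that add ASC (1.11 and 1.21) and Stat4 in As300 against Control (-1.31).

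Over both iAs levels, Stat2 had a log2 fold change of 1.16 ± 0.12 (SE) between tumors with and without ASC, with an adjusted p of 0.000126 (1.45% of all genes passed, and 1 of the 9 members). All 6 tumors with ASC were above all 6 without. The interaction of ASC and iAs was 0.10 on the log2 scale for Stat2, with a 95% interval from -0.41 to 0.61 within which a difference in the rise between iAs levels was not detected. No member passed in the interaction (0% of all genes). Stat4, with a log2 fold change of 0.68 ± 0.18 over both iAs levels, had an adjusted p of 0.0963 in edgeR and of 0.0159 in DESeq2. Without Control replicate 1 edgeR gave it 0.79, with an adjusted p of 0.0307. The other 7 members lay between 0.03 for Jak1 and 0.20 for Jak2, with adjusted p from 0.153 to 0.941.

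Exposure to 300 ppb iAs was examined without ASC. Stat4, the only member that passed, measured 5.29, 3.66 and 3.21 CPM in Control and 1.28, 1.98 and 1.62 CPM in As300. Every As300 tumor was below every Control tumor, on 51 to 97 counts against 148 to 256. Stat4 fell 2.49-fold, a log2 fold change of -1.31 ± 0.26 (SE) with an adjusted p of 0.0430, where 1.06% of all genes passed. This call is close to the threshold. It was lost in 10 of the 12 fits that left out 1 tumor, all but those without ASC replicate 1 or ASC replicate 3, with adjusted p up to 0.186 (without As300 replicate 2). Without Control replicate 1 the log2 fold change was -1.06 with an adjusted p of 0.0777.

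Stat4 is expressed in T cells and natural killer (NK) cells, and the markers of both were read in the same tumors. The 10 T cell markers summed to 104 CPM in Control replicate 1, 20.8 and 17.4 CPM in the other Control tumors, 16.3 to 23.0 CPM in As300, 63.8 to 87.9 CPM in ASC and 55.1 to 88.7 CPM in ASC_As300. All 10 were lower in As300 than in Control, and 0 passed the test in edgeR, 4 of them at an unadjusted p under 0.05, while DESeq2 called 1. Control replicates 2 and 3 thus had T cell marker sums within the range of As300, and Stat4 levels, at 3.66 and 3.21 CPM, above it. The 9 NK cell markers summed to 45.4 to 48.9 CPM in Control and 37.6 to 38.5 CPM in As300, without overlap. Of single genes 29.9% did not overlap, a share that does not hold for sums of markers. Of the 9, 7 were lower and 2 higher in As300, 1 of them at an unadjusted p under 0.05, with 0 called in edgeR and 1 in DESeq2. All 10 B cell and plasma cell markers were lower in As300, each at an unadjusted p under 0.05, with 0 called in edgeR and 1 in DESeq2. Their sums were 507, 20.6 and 16.9 CPM in Control and 12.1 to 19.0 CPM in As300. The 6 neural markers moved the other way, with sums of 32.5 to 63.0 CPM in Control and 96.5 to 137 CPM in As300, against 57.6 to 68.9 CPM in the 6 tumors with ASC. All 6 were higher in As300 than in Control, 1 of them called in edgeR and 5 in DESeq2. Between As300 and Control 24.1% of all genes tested had an unadjusted p under 0.05, and 1.06% passed in edgeR. DESeq2 called 4.76% of the genes to which it gave an adjusted p. The part of these cell types in the Stat4 difference was not tested.

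Over the 12 tumors log2 CPM of Stat4 had a Pearson r of 0.77 with the T cell sum, of 0.69 with the NK cell sum, of 0.67 with the B cell sum and of -0.79 with the neural sum, where all values of a tumor share its library. Jak1 had an r of -0.79 and Jak2 of -0.67 with the neural sum.

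**Figure D3:**
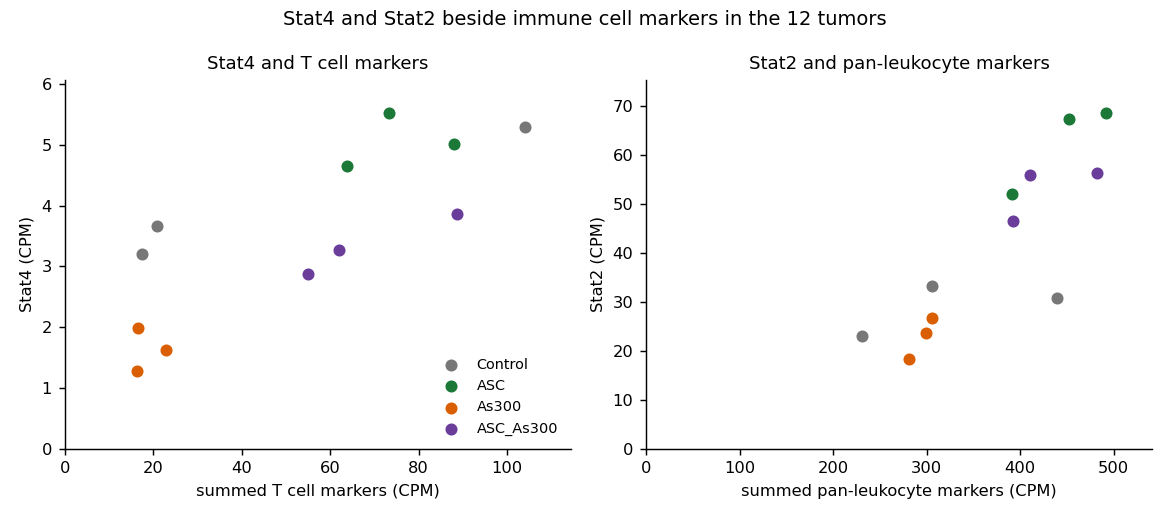
CPM of Stat4 against summed T cell markers (left) and of Stat2 against summed pan-leukocyte markers (right), 1 point per tumor and colored by group, with all axes starting at 0. Control replicate 1 has the highest T cell sum (104 CPM), and its pan-leukocyte sum (440 CPM) lies within the range of the ASC tumors while its Stat2 (30.8 CPM) is below all ASC tumors.

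Stat2 was also set beside leukocyte markers. The 5 pan-leukocyte markers summed to 231 to 440 CPM in Control, 281 to 305 CPM in As300, 391 to 492 CPM in ASC and 392 to 482 CPM in ASC_As300. The 10 macrophage and monocyte markers summed to 758 to 1006 CPM in Control, 1127 to 1146 CPM in As300, 1249 to 1655 CPM in ASC and 1284 to 1518 CPM in ASC_As300. Against Control, 4 of the 10 rose in ASC and 1 in As300, where 0.721% and 1.06% of all genes passed. In As300 9 of the 10 were higher than in Control. In Control replicate 1 the pan-leukocyte sum of 440 CPM was within the ASC range, and Stat2 was at 30.8 CPM, below each ASC tumor. The Pearson r of log2 CPM of Stat2 over the 12 tumors was 0.87 with the NK cell sum, 0.86 with the pan-leukocyte sum, 0.83 with the neutrophil sum, 0.79 with the T cell sum and 0.76 with the macrophage sum. With the epithelial and tumor cell sum it was -0.75. That sum was 26.9 to 48.8 CPM in the 6 tumors with ASC and 66.4 to 362 CPM in the 6 without, which separates them as Stat2 does. Its markers did not all move together. With ASC over both iAs levels 5 of its 7 tested markers were lower and 2 higher, with a median log2 fold change of -0.24. Of the 7, 2 had an unadjusted p under 0.05 (10.9% of all genes) and 1 passed, which was lower (1.45% of all genes passed). The part of these cells in the Stat2 difference was not tested.

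Besides Stat4, every As300 tumor was below every Control tumor for Jak1 and Jak2, which made 3 of 9 members without overlap against 29.9% of all genes. Jak1 measured 93.0, 89.4 and 109 CPM in As300, with a log2 fold change of -0.37 ± 0.11 (SE) and an adjusted p of 0.0775. Jak2 measured 44.6, 37.0 and 46.4 CPM in As300, with a log2 fold change of -0.36 ± 0.13 and an adjusted p of 0.105. DESeq2 gave Jak1 an adjusted p of 0.0313, at a fold below 1.5. Stat2 overlapped between As300 and Control, with a log2 fold change of -0.34 ± 0.17 and an adjusted p of 0.237. Stat3, Stat5a, Stat5b, Stat6 and Tyk2 lay between -0.15 and 0.13.

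Under ASC, iAs was examined between ASC_As300 and ASC. No member passed in edgeR, nor did any gene (0% of those tested, with 669 genes at an unadjusted p under 0.05). DESeq2 called 11 genes and none of the 9 members. Stat4 measured 4.66, 5.52 and 5.01 CPM in ASC and 3.28, 2.88 and 3.86 CPM in ASC_As300. It was the only member whose tumors did not overlap, against 8.07% of all genes, with a log2 fold change of -0.60 ± 0.25 (SE) and an adjusted p of 1. Stat2 overlapped, at -0.24 ± 0.17. The other 7 members lay between -0.0043 for Jak2 and 0.16 for Tyk2.

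Over both ASC levels the iAs effect on Stat4 was -0.96 ± 0.18 (SE) on the log2 scale. Its adjusted p was 0.181 in edgeR, which passed 0% of all genes (3325 at an unadjusted p under 0.05), and 0.000465 in DESeq2, which called 114 genes. In edgeR without ASC replicate 3 the adjusted p was 0.0412. Stat2, at -0.29 ± 0.12 with an adjusted p of 0.264, and Jak1, at -0.18 ± 0.08 with an adjusted p of 0.309, had unadjusted p of 0.0282 and 0.0483. The other 6 members lay between -0.18 for Jak2 and 0.10 for Stat5a, with adjusted p from 0.335 to 0.994. The interaction for Stat4 was 0.71 with a 95% interval from -0.06 to 1.49. Jak1 had the smallest unadjusted p of the 9 in the interaction, at 0.0293, with a value of 0.40 and an adjusted p of 0.332. The other 6 members had interaction values from -0.06 for Stat5a to 0.36 for Jak2, with adjusted p from 0.392 to 0.940. In the interaction edgeR called 0 genes with 2836 at an unadjusted p under 0.05, and DESeq2 called 144.

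The combination was compared with Control, tumors that also entered both comparisons above. Stat2 rose 1.82-fold (95% interval 1.42 to 2.34), a log2 fold change of 0.87 ± 0.17 (SE) with an adjusted p of 0.0289. It was the only member that passed, where 0.807% of all genes passed. The call was lost without Control replicate 1 (0.91, adjusted p = 0.0533), Control replicate 3 (0.74, adjusted p = 0.111), ASC_As300 replicate 2 (0.82, adjusted p = 0.112) or ASC_As300 replicate 3 (0.83, adjusted p = 0.133). Stat3 and Stat6 were higher in every ASC_As300 tumor than in every Control tumor as well, which with Stat2 made 3 of 9 members against 25.6% of all genes. Stat3 had a log2 fold change of 0.17 ± 0.07 with an adjusted p of 0.286. For Stat6, at 105, 109 and 103 CPM in Control and 116, 113 and 110 CPM in ASC_As300, it was 0.10 ± 0.08 with an adjusted p of 0.609. The other 6 members lay between -0.28 for Stat4 and 0.25 for Stat5a, with adjusted p from 0.487 to 0.963.

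The make-up of the STAT transcripts shifted with Stat2. Of the summed CPM per kb of the 6 STAT genes, Stat2 held 8.83% ± 1.38 (SD, n = 3) in Control and 7.42% ± 1.20 in As300. In ASC it held 16.8% ± 2.32 and in ASC_As300 13.9% ± 1.11. The range in tumors with ASC, 12.6% to 18.9%, did not overlap that in tumors without, 6.04% to 9.63%. Stat6 held the largest share in each group, from 38.4% ± 2.32 in ASC to 45.8% ± 1.53 in As300. Stat3 held between 25.2% and 27.1% on average. Since shares add up to the whole, a higher share of 1 gene lowers the others.

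Among the JAK genes, Jak1 held 46.3% to 49.95% of the summed CPM per kb on average, Jak2 29.7% to 33.5% and Tyk2 18.7% to 23.3%. Tyk2 had its highest share in As300, at 23.3% ± 0.51 (SD, n = 3), where its CPM, at 45.0, 42.3 and 49.3, overlapped Control and Jak1 and Jak2 were lower. The 6 STAT genes together measured 55.4 ± 2.56 CPM per kb (SD, n = 3) in Control, 62.9 ± 3.10 in ASC, 52.1 ± 2.63 in As300 and 64.2 ± 1.62 in ASC_As300. The 3 JAK genes together measured 34.8 ± 2.35, 33.0 ± 5.04, 28.5 ± 2.79 and 33.9 ± 1.09 CPM per kb in the same order of groups.

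**Figure D4:**
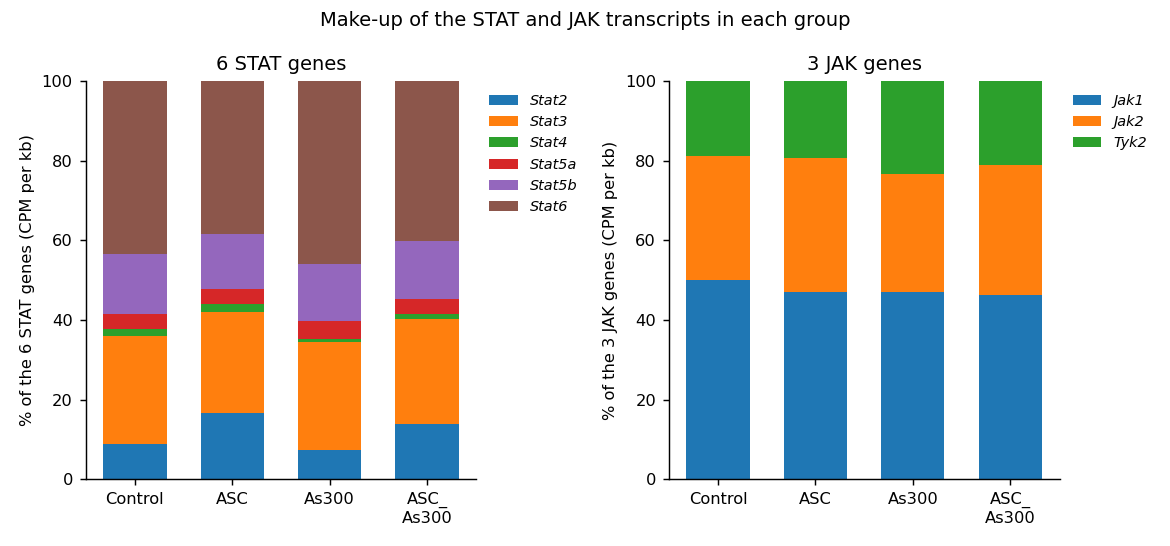
Mean share of each gene in the summed CPM per kb of the 6 STAT genes (left) and of the 3 JAK genes (right) in each group of 3 tumors, with vertical axes from 0 to 100%. The Stat2 segment is 16.8% in ASC and 13.9% in ASC_As300, against 8.83% in Control and 7.42% in As300.

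Stat5a and Stat5b are similar neighbors that share stretches of sequence. The longest reading frames of their GENCODE M21 transcripts, of 2394 and 2361 bases, were identical at 90.7% of aligned positions. Their longest shared run was 324 bases, and 11.5% of the windows of 100 bases in Stat5a were also in Stat5b. No other pair that includes either gene shared a run of more than 20 bases. How the authors' counting split reads of the shared stretches is not given in the sources used here, so that part of the counts of both is uncertain. With both counts summed, the pair passed in 0 of the comparisons, as each did alone.

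ASC_As300 replicate 2 had the highest level of both, at 23.5 CPM for Stat5a and 57.8 CPM for Stat5b. In the other 11 tumors Stat5a lay between 13.5 and 17.7 CPM. The genes whose log2 CPM was most like that of Stat5a over the 12 tumors were Mcpt4, with a Pearson r of 0.88, and Cma1, with 0.87, both of which encode chymases of mast cells, followed by Gm5846 with 0.83. Mcpt4 measured 13.8 CPM in ASC_As300 replicate 2 and 2.58 to 8.25 CPM in the other 11 tumors. Cma1 measured 12.6 CPM there and 3.71 to 9.38 CPM in the others. Without this tumor the r with Stat5a was 0.80 for Mcpt4 and 0.81 for Cma1, while the r between Stat5a and Stat5b went from 0.37 to -0.17.

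Most like Stat2 were Znfx1, Parp14 and Trim21, an antibody receptor inside cells, with a Pearson r of 0.98 each, and 168 genes had an r over 0.9 with it. Parp14, a gene inducible by interferon, measured 21.3 to 40.0 CPM in Control, 20.3 to 28.5 CPM in As300, 79.0 to 89.7 CPM in ASC and 66.2 to 80.8 CPM in ASC_As300. For the other 8 members the number of genes with an r over 0.9 was between 0 and 20. For Stat3 the highest were Zfp862-ps (0.92), Gm15931 (0.91) and Cmtr1 (0.90), and for Stat4 Zfp521 (0.92), Zfp324 (0.90) and Gm6104 (0.90). They were Pacsin2 (0.92), Itprid2 (0.91) and Nptn (0.90) for Stat5b, and Espl1 (0.91) and Serpinb7 (0.91) for Stat6.

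For Jak1 the genes of most similar pattern were Tstd2 (0.96), N4bp2 (0.93) and Phlpp1 (0.93). Those of Jak2 were Tmod3 (0.93), Kat2b (0.93) and Samd9l (0.93), and those of Tyk2 Gm33858 (0.88), 9130214F15Rik (0.88) and Noxred1 (0.86). Within the 9 genes the highest r were 0.80 between Jak1 and Jak2, 0.78 between Stat2 and Stat3 and 0.71 between Stat3 and Stat5b. That between Stat2 and Stat6 was 0.30. These are descriptions over 12 tumors of 4 groups, in which genes that differ between the groups vary together.

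The other genes of the pathway were read by role, from lists of 119 genes of which 111 were tested. Between ASC and Control 10 of the 111 passed, all higher, where 0.721% of all genes passed. Between ASC_As300 and Control 7 passed (0.807% of all genes), between ASC_As300 and As300 8 passed (0.855%), and for ASC over both iAs levels 23 passed (1.45%), again all higher. DESeq2 called 26, 16, 20 and 32 of the 111 in the same order of comparisons, against 3.04%, 2.64%, 1.93% and 2.18% of all genes to which it gave an adjusted p. None of the 111 passed between As300 and Control, between ASC_As300 and ASC, for iAs over both ASC levels or in the interaction, where 23, 5, 18 and 8 of them, in this order, had an unadjusted p under 0.05. These are 20.7%, 4.50%, 16.2% and 7.21% of the 111, against 24.1%, 3.21%, 16.0% and 13.6% of all genes tested. DESeq2 called 3 of the 111 between As300 and Control and 0 in each of the other 3. It called 4.76%, 0.046%, 0.771% and 1.25% of all genes to which it gave an adjusted p, in the same order.

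Among ligands, 15 of 22 were tested. Between ASC and Control edgeR called 0 of the 15 and DESeq2 3 (0.721% and 3.04% of all genes), so that these calls depend on the tool. Ifng, which encodes interferon gamma, had 5, 12 and 4 counts in Control, 114, 64 and 96 in ASC, 12, 0 and 23 in As300, and 100, 112 and 178 in ASC_As300. In edgeR it passed between ASC_As300 and Control (adjusted p = 0.0347) and not between ASC and Control (adjusted p = 0.0563). The first call was lost in 7 of the 12 fits without 1 tumor (any Control or ASC_As300 tumor, or ASC replicate 1), with adjusted p up to 0.155. Il15, a cytokine that sustains NK cells and memory T cells, measured 2.56 to 3.88 CPM in As300 and 6.54 to 7.50 CPM in ASC_As300, with a log2 fold change of 1.07 ± 0.22 (SE) and an adjusted p of 0.0384, a call lost in 10 of the 12 such fits, all but those without Control replicate 1 or ASC replicate 2, with adjusted p up to 0.188. Over both iAs levels Ifng, Il15 (0.88) and Ebi3 (0.74), a subunit of IL-27 and IL-35, rose with ASC, the last with a call kept without Control replicate 1 and lost in the other 11 fits (adjusted p up to 0.147), while the median of the 15 ligands was 0.18.

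Of 29 receptor chains tested, Il15ra rose in all 3 comparisons that add ASC. It encodes the alpha chain that presents IL-15. Il15ra measured 9.11 to 9.94 CPM in Control, 20.04 to 25.4 CPM in ASC, 6.60 to 8.96 CPM in As300 and 17.2 to 23.7 CPM in ASC_As300. Its log2 fold change was 1.24 ± 0.16 (SE) without iAs and 1.51 ± 0.17 under iAs, with adjusted p of 0.00241 and 0.000593. Il2rb, the chain shared by the IL-2 and IL-15 receptors, rose in the same comparisons, with a log2 fold change of 2.10 ± 0.29 under iAs. Without iAs it had 1.38 ± 0.29 and an adjusted p of 0.0495, a call lost in 9 of the 12 fits without 1 tumor, all but those without Control replicate 1, ASC replicate 1 or As300 replicate 3, with adjusted p up to 0.184. The call between ASC_As300 and Control was lost in 6 of 12, without Control replicate 2 or 3, ASC replicate 1 or any ASC_As300 tumor. Il12rb1, a chain of the IL-12 receptor, and Il10ra, of the IL-10 receptor, rose with ASC over both iAs levels, by 1.86 and 0.86 on the log2 scale. The median of the receptors was 0.17 there. Between ASC and Control edgeR called 2 of the 29 and DESeq2 6 (0.721% and 3.04% of all genes). The other chain of the IL-12 receptor, Il12rb2, was near the detection limit with 4 to 32 counts in Control and 0, 5 and 0 in As300.

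Of 18 inhibitors, Socs1, a suppressor of interferon signalling, rose between ASC and Control and between ASC_As300 and Control. It measured 7.67, 5.64 and 6.10 CPM in Control, 14.4, 18.4 and 20.5 CPM in ASC, 10.01, 10.51 and 11.6 CPM in As300 and 14.5, 19.9 and 19.1 CPM in ASC_As300. Each of the other groups lay above Control. The log2 fold change was 1.45 ± 0.18 (SE) in ASC, with an adjusted p of 0.00166, and 0.73 ± 0.18 in As300, with an adjusted p of 0.0511. Between ASC_As300 and As300 it was 0.74 ± 0.18 with an adjusted p of 0.0972. Usp18, which blocks the type I interferon receptor, rose with ASC over both iAs levels by 1.12 on the log2 scale, a call lost without ASC replicate 2, As300 replicates 1 or 2, or ASC_As300 replicates 2 or 3 (adjusted p up to 0.0943). The other 16 inhibitors did not pass in edgeR, and the median of the 18 was -0.0082. Between ASC and Control edgeR called 1 of the 18 and DESeq2 2 (0.721% and 3.04% of all genes).

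The 15 genes listed with STAT2, its partner Irf9 and targets of type I interferon, were all higher in ASC than in Control, and 7 of them passed in edgeR and 14 in DESeq2, where 0.721% and 3.04% of all genes passed. Their median log2 fold change was 1.29, against -0.0044 over all genes. Ifnb1, the type I interferon gene among the listed ligands, averaged 0.055 CPM in Control and 0.063 CPM in ASC. In As300 and ASC_As300 it averaged 0.11 and 0.097 CPM. Which interferon lay behind the levels of the 15 genes was not tested. Irf9 measured 24.5 to 31.97 CPM in Control and 46.4 to 52.1 CPM in ASC, with a log2 fold change of 0.74 ± 0.12 (SE) and an adjusted p of 0.0120. Bst2 (1.39), which tethers budding virus, and Oas1a (1.37) and Oas3 (1.71), sensors of double-stranded RNA, were the others of smallest p. In a fit of only the 6 tumors compared, Irf9, Oas1a and Oas3 each lost this call at an adjusted p of 0.0522. Under iAs all 15 were again higher with ASC, with a median of 0.94, and 4 passed, Ifih1, Bst2, Irf9 and Oas3 (0.855% of all genes), while DESeq2 called 9 (1.93%).

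The calls of these genes under iAs were weaker than that of Stat2. Irf9, at 0.63 ± 0.12 (SE) with an adjusted p of 0.0321, and Oas3, at 1.37 ± 0.28 with an adjusted p of 0.0414, lost their calls in 9 and in 8 of the 12 fits without 1 tumor, with adjusted p up to 0.173 and 0.189. Irf9 kept it without Control replicates 1 or 3 or ASC replicate 2, and Oas3 without any Control tumor or As300 replicate 3. Ifih1 and Bst2 lost theirs without As300 replicates 1 or 2 or ASC_As300 replicates 2 or 3, with adjusted p up to 0.0953 and 0.169. The calls of Irf9 and Oas3 were also lost with upper-quartile factors (0.0542 for both), without a filter on low counts (0.0526 and 0.0505) and with a replicate block (0.0622 and 0.0973). Over both iAs levels 13 of the 15 passed, all but Oas2 and Ifit2, against 1.45% of all genes, and DESeq2 called 14 (2.18%). Between ASC_As300 and ASC all 15 were lower and 0 passed, with a median of -0.34 and 1 of them at an unadjusted p under 0.05 and 0 called by DESeq2.

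**Figure D5:**
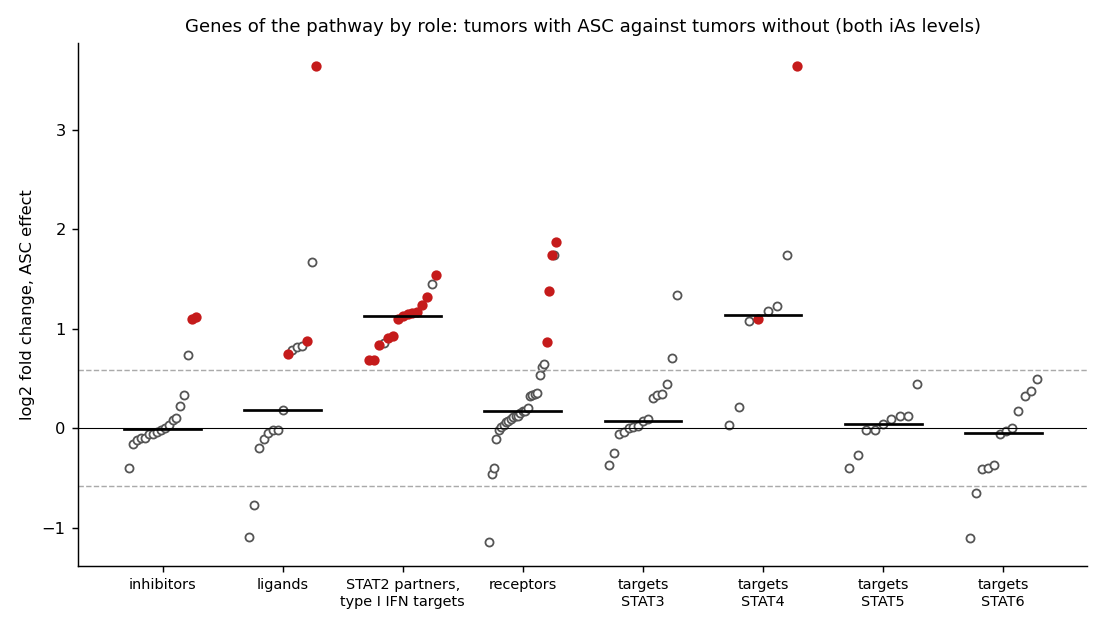
Log2 fold change of the tested genes of each list for ASC over both iAs levels (vertical axis), 1 point per gene ordered within its list, red where the gene passed the test, with the list median as a bar and dashed lines at 1.5-fold. The median is 1.13 for the genes listed with STAT2 and 1.14 for the STAT4 targets. The medians of the lists of STAT3, STAT5 and STAT6 targets lie between -0.05 and 0.07.

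The 15 genes listed as STAT3 targets held none that passed in any of the 8 comparisons in edgeR, with 1 to 9 of them at an unadjusted p under 0.05. DESeq2 called 1 between As300 and Control and 2 for ASC over both iAs levels (4.76% and 2.18% of all genes). Socs3, the inhibitor induced through STAT3, measured 42.4 to 44.8 CPM in Control, 54.2 to 59.0 CPM in ASC, 45.0 to 53.0 CPM in As300 and 59.5 to 61.6 CPM in ASC_As300. Its log2 fold change over both iAs levels was 0.33 ± 0.05 (SE) with an adjusted p of 0.00602, below the 1.5-fold limit. Junb, an AP-1 transcription factor, had a log2 fold change of 0.57 ± 0.09 between As300 and Control with an adjusted p of 0.0401, also below that limit.

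Of 8 STAT4 targets, Ifng and Il18rap, a chain of the IL-18 receptor, passed with ASC over both iAs levels (1.45% of all genes). All 8 were higher there, with a median log2 fold change of 1.14. Of them 7 had an unadjusted p under 0.05 (10.9% of all genes), and DESeq2 called 4 (2.18%). In this comparison 9 of the 10 T cell markers were higher and 1 lower, with a median of 1.29. All 9 NK cell markers were higher, with a median of 0.50. The part of these cells in the levels of the STAT4 targets was not tested. Il18rap measured 8.14 to 10.4 CPM in Control, 10.8 to 19.9 CPM in ASC, 5.03 to 8.81 CPM in As300 and 17.4 to 20.3 CPM in ASC_As300. Under iAs it rose with ASC, with a log2 fold change of 1.39 ± 0.24 (SE) and an adjusted p of 0.0145, a call lost without As300 replicates 1 or 2 or ASC_As300 replicates 1 or 2 (adjusted p up to 0.0721). None of the 8 passed between As300 and Control in edgeR, where Stat4 itself fell. Their median was -0.31, 3 had an unadjusted p under 0.05 (24.1% of all genes) and DESeq2 called 1 (4.76%). The gene of smallest p there was Furin, a protease, at 0.34 ± 0.09 with an adjusted p of 0.0526.

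Neither the 9 STAT5 targets nor the 12 STAT6 targets held a gene that passed in any comparison in edgeR, with at most 3 of either list at an unadjusted p under 0.05. DESeq2 called 0 of the STAT5 targets. It called 1 of the STAT6 targets both in ASC_As300 against As300 and for ASC over both iAs levels (1.93% and 2.18% of all genes). For ASC over both iAs levels the smallest p was that of Pim1, a survival kinase, among STAT5 targets, at 0.44 ± 0.12 (SE) with an adjusted p of 0.0963. Among STAT6 targets it was that of Ccl17, a chemokine, at -1.10 ± 0.31 with an adjusted p of 0.126 and levels of 0.376 to 2.13 CPM over the 12 tumors. Between As300 and Control it was that of Retnla, a product of macrophages activated by IL-4, at -2.15 ± 0.73 with an adjusted p of 0.101, and its tumors lay between 3.91 and 17.0 CPM in Control and were at most 3.70 CPM in As300.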

How the data were processed

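RNA of 12 tumors was sequenced as paired-end, poly(A)-selected, strand-specific libraries on a NovaSeq instrument. The authors trimmed reads with cutadapt 1.1.0, aligned with HISAT2 2.0 and took transcript abundances from StringTie 1.3.4 and Ballgown, per the labels and the paper. The deposited values are whole-number counts without normalization. The step that made the counts, the build and the annotation are not given in the sources used here. Low counts were most frequent at 4, with 1137 to 1298 genes of a tumor at 4 counts and 618 to 795 at 3, so that a count may not equal 1 read pair. Symbols came from GENCODE M21.

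Genes were filtered with filterByExpr, normalized by TMM and fitted in edgeR 4.0.16 (R 4.3.3) with 1 mean per group over all 12 tumors. The quasi-likelihood F test was adjusted by Benjamini-Hochberg over 20818 genes. Each tumor came from a separate mouse. CPM use TMM-scaled library sizes and log2 CPM a prior count of 2. Comparisons that share a group share its tumors. With 3 against 3 tumors the smallest exact p is 0.1, so p-values are those of the model. Alternatives were DESeq2 1.42.0, RLE and upper-quartile factors, no filter, at least 10 counts in every tumor, the replicate number in the fit, leaving out each tumor, no minimum fold, only the 6 tumors compared and summed Stat5 counts. A GC correction was added after seeing the data. The procedure was tested on simulated data.

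The 9 genes and the lists were chosen with earlier results of these data known. The text covers all 9 genes in every comparison, those that did not pass in part as a range, of each list up to 4 genes of smallest p among those that passed (or 1 if none did), and for each gene the 3 of highest Pearson r, except 1 for Stat6 that is not reported here. Il12rb2 in Control and As300, Oas2, Ifit2, the means of Ifnb1 and the values of Ifng in all groups were added after their values were seen. Amino acid sequences were not used here.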

Additional observations from a re-analysis of the deposited data

How the results depend on the processing

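Stat2 kept its call in all alternatives for ASC against Control (20, adjusted p at most 0.0318), ASC_As300 against As300 (20, at most 0.0205) and ASC over both iAs levels (19, at most 0.000677). Against Control, ASC_As300 kept it in 15 of 20, with 0 members called in the fit with a replicate block (Stat2 0.87, adjusted p = 0.0545). Of 18 same-numbered pairs of tumors, 2 had a correlation of deviations over 0.1 (-0.124 to 0.172). Differently numbered pairs from different groups ran from -0.222 to 0.246, so that same-numbered tumors did not stand out. Whether tumors of the same number shared a batch was not tested. The replicate block changed no other count of members called. The fall of Stat4 in As300 kept its call in 7 of 20 alternatives, with log2 fold changes from -1.48 to -1.06. No filter (adjusted p = 0.0628), only the 6 tumors compared (0.0635) and the GC correction (0.118) each left 0 members called there. DESeq2 added Stat4 in 3 comparisons, with 2 members called in ASC_As300 against As300, 2 for ASC over both iAs levels and 1 for iAs over both ASC levels. A call by adjusted p alone changed no count. Of the other genes of the pathway, the replicate block also ended the calls of Il2rb in ASC against Control (adjusted p = 0.0585), Ifng (0.0662) and Oas3 (0.0648) in ASC_As300 against Control, Il15 in ASC_As300 against As300 (0.0886), and Usp18 (0.0592) and Ebi3 (0.0715) for ASC over both iAs levels. Without a filter Il2rb (0.0506), Il15 (0.0647) and Ebi3 (0.0859) lost the same calls, as did Il2rb (0.134) and Il15 (0.0582) with only the 6 tumors compared, Il15 (0.0552) and Ebi3 (0.0646) with upper-quartile factors, Ebi3 with RLE factors (0.0554), and Il2rb (0.0552, and 0.0530 in ASC_As300 against Control) and Ebi3 (0.0660) with the GC correction. Leaving out 1 tumor gave 0 to 1 members in As300 against Control, 0 to 1 in ASC_As300 against Control, 1 to 2 for ASC over both iAs levels and 0 to 1 for iAs over both ASC levels. Stat4 had the fewest counts of the 9 genes, with 51 to 256 per tumor. The cause of these changes was not tested.

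Small log2 fold changes of members that did not pass also changed sign. With the GC correction, ASC against Control gave -0.016 for Stat5b and -0.067 for Stat6. In As300 against Control it gave -0.10 for Stat5a and -0.18 for Tyk2, in ASC_As300 against Control -0.028 for Tyk2, and in ASC_As300 against ASC 0.020 for Jak2, where the replicate block gave 0.0035. Over both iAs levels, ASC gave Tyk2 -0.0013 under this correction. Over both ASC levels, iAs gave -0.033 for Stat3, -0.030 for Stat5a, -0.019 for Stat6 and -0.026 for Tyk2, and the interaction was 0.14 for Stat5a. Stat6 in As300 against Control was 0.012 with RLE factors, 0.025 with upper-quartile factors, 0.00015 without a filter, 0.027 with at least 10 counts in every tumor, 0.012 with only the 6 tumors compared and 0.012 in DESeq2. With summed Stat5 counts the pair had -0.078 in As300 against Control, 0.015 for iAs over both ASC levels and 0.19 in the interaction. Stat5b for iAs over both ASC levels was 0.00021 with at least 10 counts in every tumor.

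Leaving out 1 tumor changed the sign of further small values. In ASC against Control the ranges were -0.048 to 0.13 for Stat5b, -0.016 to 0.075 for Stat6, -0.11 to 0.15 for Jak2 and -0.15 to 0.069 for Tyk2. In As300 against Control they were -0.043 to 0.049 for Stat6 and -0.086 to 0.13 for Tyk2. Stat5a ranged from -0.011 to 0.40 in ASC_As300 against Control, from -0.16 to 0.24 against As300 and from -0.21 to 0.20 against ASC, where Jak1 ranged from -0.091 to 0.083 and Jak2 from -0.13 to 0.14. For ASC over both iAs levels Jak1 ranged from -0.0014 to 0.089 and Tyk2 from -0.029 to 0.080. For iAs over both ASC levels the ranges were -0.017 to 0.029 for Stat3, -0.028 to 0.17 for Stat5a and -0.059 to 0.035 for Stat5b. In the interaction they were -0.040 to 0.21 for Stat2 and -0.36 to 0.045 for Stat5a.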
